A study of Mus musculus with 64 samples.

Results

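The heart was compared between mice labelled KO and wild-type mice (CTRL) while both were on a high-sucrose diet (HSD). The 4 heart libraries labelled KO and HSD were set against the 4 labelled CTRL and HSD, which makes 8 of the 64 libraries of the series, chosen by their genotype, diet and tissue labels alone. Per the labels the wild types were male C57BL/6J mice and the mutants were Pklr-/-, all given as C57BL/6 in the strain field. All mice ate chow up to 8 weeks of age, under a daily light and dark cycle, and then either chow or HSD for 8 more weeks. Heart, liver, white adipose tissue (WAT) and muscle were taken at 16 weeks. The series' title concerns PKLR as a target in fatty liver disease, and this contrast asks what the mutant genotype was accompanied by in the heart under sucrose feeding. The labels used here give neither the allele of the mutation, nor whether mutants and wild types were littermates, nor the hour at which tissue was taken.

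In heart RNA on HSD, labelled-KO mice had lower transcript levels of the clock activator Arntl, the cell cycle inhibitor Cdkn1a, the Rac activator Tiam2 and the metalloprotease Adam19, and a higher level of the lysosomal transporter Slc46a3. These 5 genes were the calls among 12134 tested, 0.0412% of them, by edgeR's quasi-likelihood test with Benjamini-Hochberg adjustment at 0.05. At an unadjusted p under 0.05 there were 346 genes with a higher mean (2.85%) and 314 with a lower one (2.59%). Means were higher in labelled KO for 50.2% of all tested genes and the median log2 fold change was 0.00. The same genotype contrast in the 8 heart libraries on chow, which share no library with the HSD contrast, gave 0 calls (0%), with 447 genes at an unadjusted p under 0.05 (3.68%); DESeq2's Wald test also gave 0. A test of the difference between the HSD and chow contrasts, the genotype by diet interaction, called 1 gene (0.00824%), Arntl, and 580 had an unadjusted p under 0.05 (4.78%).

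Pklr, which encodes the pyruvate kinase of hepatocytes and erythrocytes (GRCm38 chromosome 3, 89136142 to 89146784), could not check the labels in this tissue, because it was near 0 in all heart libraries. Its level in TPM, a measure scaled by transcript length and library total, was 0, 0.104, 0.121 and 0.0376 in labelled-KO HSD replicates 1 to 4 and 0, 0, 0.0366 and 0.0353 in CTRL HSD replicates 1 to 4, from 7 and 2 estimated counts in all. On log2(TPM + 1) an exact permutation test, two-sided, had p = 0.171, where 70 arrangements allow no p below 0.0286. In the liver of the same groups Pklr was 314 to 459 TPM in labelled KO and 154 to 263 TPM in CTRL, which goes against the label for a lost transcript, so the word labelled is kept throughout and every direction follows the labels as deposited. Pkm (chromosome 9, 59656368 to 59679375), the pyruvate kinase that heart muscle uses, was 325, 289, 350 and 211 TPM in labelled KO and 347, 321, 323 and 255 TPM in CTRL. The groups overlapped (exact permutation test, two-sided, p = 0.686).

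Estimated counts summed to 8342613 to 9920970 per labelled-KO HSD library and 9526848 to 10765216 per CTRL HSD library. Mitochondrially encoded transcripts took 40.9 to 48.6% of counts in labelled KO and 41.3 to 45.6% in CTRL, the highest share in each group being that of replicate 4. These same 2 libraries, labelled-KO HSD replicate 4 and CTRL HSD replicate 4, stood apart on the first principal component of the 16 heart libraries (18.5% of the variance). TPM of nuclear genes are lower where the mitochondrial share is higher, while the fold changes below are scaled by TMM, so a TPM in replicate 4 of either group reads low beside its fold change. The cardiomyocyte markers Myh6, Tnnt2 and Actc1 and the other 7 of their list summed to 36370 to 41700 TPM in labelled KO and 39070 to 43660 TPM in CTRL. Ucp1 and Otop1 of brown fat, Sftpc of lung, Th of nerves and Rag1 of thymus were listed at 0 in all 8 libraries. In bulk tissue, fewer cells of a type and less RNA per cell cannot be told apart. Each library of a group is taken as a separate animal, since the labels describe 4 mice per group.

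The circadian clock is a feedback loop that runs in nearly every cell, the cardiomyocyte included. BMAL1 (the product of Arntl) pairs with CLOCK or NPAS2 and switches on genes with an E-box, among them the period genes Per1 to Per3, the cryptochromes, the REV-ERB genes Nr1d1 and Nr1d2, Ciart, and the PAR-bZIP factors Dbp, Tef and Hlf. The period and cryptochrome proteins then block BMAL1, REV-ERB proteins repress Arntl through RORE sites that ROR factors activate, and the PAR-bZIP factors act on D-boxes, where NFIL3 opposes them. In the intact loop the activators and these targets therefore peak at different hours of the day.

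Promoter windows of RefSeq (GRCm38.p6, from 250 bases before to 50 bases after an annotated start) were found for 32 of the 39 clock and named genes, and were searched on both strands for the E-box CACGTG, the D-box TTATGTAA and the RORE core TAGGTCA. The E-box reads the same on both strands, and no stretch shown holds a second kind of these motifs. The E-box lay in 7.15% of all 32851 windows, the D-box in 0.938% and the RORE core in 2.61%. These stretches are shown as examples of each motif in clock genes of opposite arms, and of the E-box in 2 named genes outside the clock; capitals mark the motif and each is written 5′ to 3′ on the gene's strand.
Ciart, with 3 E-boxes, chr3:95882259-95882368, minus strand: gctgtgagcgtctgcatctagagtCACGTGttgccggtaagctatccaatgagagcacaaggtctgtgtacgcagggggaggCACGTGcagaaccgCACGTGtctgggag
Tef, with 1 E-box, chr15:81811254-81811313, plus strand: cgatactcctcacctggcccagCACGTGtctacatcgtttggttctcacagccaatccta
Per3, with 2 D-boxes, chr4:151044796-151044885, minus strand: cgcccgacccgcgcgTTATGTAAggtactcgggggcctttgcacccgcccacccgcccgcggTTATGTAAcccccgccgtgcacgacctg
Arntl, with 1 RORE core in the annotated first bases of the transcript, chr7:113207531-113207557, plus strand: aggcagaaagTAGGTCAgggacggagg
Adam19, with 1 E-box, chr11:46054342-46054401, plus strand: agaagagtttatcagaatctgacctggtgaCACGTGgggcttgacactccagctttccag
Slc41a3, with 1 E-box, chr6:90619006-90619065, plus strand: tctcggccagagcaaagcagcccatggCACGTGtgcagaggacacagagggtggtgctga
Of the 16 clock genes with a window, 5 held an E-box (Bhlhe41, Ciart, Cry1, Per1 and Tef), 1 a D-box (Per3) and 2 a RORE core (Arntl and Nfil3). Of the tested genes with a window, 11.8% held an E-box, 0.656% a D-box and 2.17% a RORE core. Of the 21 genes taken by the naming rule that had a window, 6 held an E-box, and their differences on HSD had both signs: Tef and Pfkfb3 had higher means, and Adam19, Adcy1, Prkar1a and Slc41a3 lower ones. The windows of the called genes Arntl, Cdkn1a and Tiam2 held no E-box. The Adam19 window with the E-box lies upstream of the GENCODE start given for the gene below, since the RefSeq start differs. A match describes these letters and is not a measured site of binding, and a window without a match says only that the letters are not in it.

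Arntl (chromosome 7, 113207465 to 113314126) was 2.10, 1.42, 1.41 and 1.79 TPM in labelled-KO HSD replicates 1 to 4 and 7.35, 3.40, 6.40 and 3.81 TPM in CTRL HSD replicates 1 to 4. Every labelled-KO library lay below every CTRL library, the nearest being 2.10 against 3.40 TPM. Arntl fell by 1.70 ± 0.23 on the log2 scale (SE; adjusted p = 0.012, edgeR), from 170 estimated counts in labelled KO against 617 in CTRL over 4 libraries each. On chow it was 5.43 to 8.27 TPM in labelled KO and 3.40 to 4.86 TPM in CTRL, a log2 difference of 0.56 ± 0.21 in the other direction that did not pass. The difference between the diets was -2.25 ± 0.31 (log2, adjusted p = 0.0149, edgeR).

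The partners of BMAL1 were low in the same libraries, though neither passed after adjustment. Clock was 5.80, 5.80, 4.16 and 5.06 TPM in labelled KO and 7.32, 7.66, 8.06 and 6.68 TPM in CTRL, without overlap (log2 fold change -0.47 ± 0.10, adjusted p = 0.155, edgeR). Npas2 was 0.563, 0.199, 0.247 and 0.144 TPM against 0.966, 0.802, 0.678 and 0.541 TPM, where labelled-KO replicate 1 reached the lowest CTRL library (log2 fold change -1.36 ± 0.33, adjusted p = 0.350). Npas2 rests on 48 and 137 estimated counts.

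The PAR-bZIP output factors showed the opposite pattern. Dbp was 24.8, 24.8, 23.7 and 15.9 TPM in labelled KO and 2.88, 13.9, 4.12 and 7.59 TPM in CTRL, so the lowest labelled-KO library was above the highest CTRL one. Its log2 fold change was 1.65 ± 0.36 (adjusted p = 0.249, edgeR), and the CTRL libraries differed among themselves from 2.88 to 13.9 TPM. Without CTRL HSD replicate 2, the one with 13.9 TPM, Dbp passed with a log2 fold change of 2.25 (adjusted p = 0.00226, edgeR). That was the 1 pass among 8 fits that each left out 1 HSD library. In the others the adjusted p of Dbp was 0.175 to 0.673 (edgeR). Tef was 31.9, 35.02, 33.9 and 27.6 TPM against 18.1, 22.9, 18.97 and 25.02 TPM (0.63 ± 0.14, adjusted p = 0.249). It passed at 0.77 without CTRL HSD replicate 4 (adjusted p = 0.0369, edgeR), again in 1 of the 8 such fits. In the others its adjusted p was 0.232 to 0.803 (edgeR). Hlf was 4.26, 4.77, 4.58 and 3.22 TPM against 2.30, 2.86, 1.48 and 2.53 TPM (0.88 ± 0.20, adjusted p = 0.249). Neither Tef nor Hlf overlapped between the groups. The naming rule described below takes only genes with groups apart, so a lack of overlap is no separate support for any gene it names. Nfil3, which binds the same D-boxes as a repressor, was 4.14, 3.59, 2.80 and 1.45 TPM against 5.75, 3.99, 5.30 and 3.36 TPM, with overlap (-0.61 ± 0.26, adjusted p = 0.863).

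Among the repressors of the loop, Per2 was 2.45, 3.19, 2.17 and 1.63 TPM in labelled KO and 0.721, 1.40, 1.37 and 1.34 TPM in CTRL (log2 fold change 0.98 ± 0.28). Per3 was 1.88, 2.39, 1.77 and 2.13 TPM against 0.509, 0.934, 0.606 and 1.30 TPM (1.30 ± 0.37), and Ciart was 5.69, 7.09, 8.82 and 5.84 TPM against 2.49, 4.55, 3.21 and 3.86 TPM (1.08 ± 0.34). In all 3 genes the groups were apart, with adjusted p from 0.484 to 0.605 in edgeR. Among the 70 arrangements of 4 against 4 libraries, a share of 0.0286 sets the groups apart in either direction. The share of all tested genes with groups apart is not given, so being apart is no separate support, here and below. Nr1d2 was 29.4, 31.2, 26.1 and 28.97 TPM against 18.2, 21.97, 21.01 and 25.5 TPM (0.44 ± 0.14), whereas its sister gene Nr1d1, at 12.8 to 30.8 TPM against 18.1 to 31.8 TPM, had a log2 fold change of -0.01 ± 0.19. Cry2 stood at 0.43 ± 0.11 and Cry1 at -0.06 ± 0.20, and Per1, at 4.97 to 10.2 TPM against 5.29 to 6.54 TPM, at 0.40 ± 0.31. The clock pattern thus did not include every member of the repressor arm at a similar size. Bhlhe41 was at 0.50 ± 0.18, Bhlhe40 at 0.12 ± 0.19 and Rora at 0.19 ± 0.11.

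**Figure D1:**
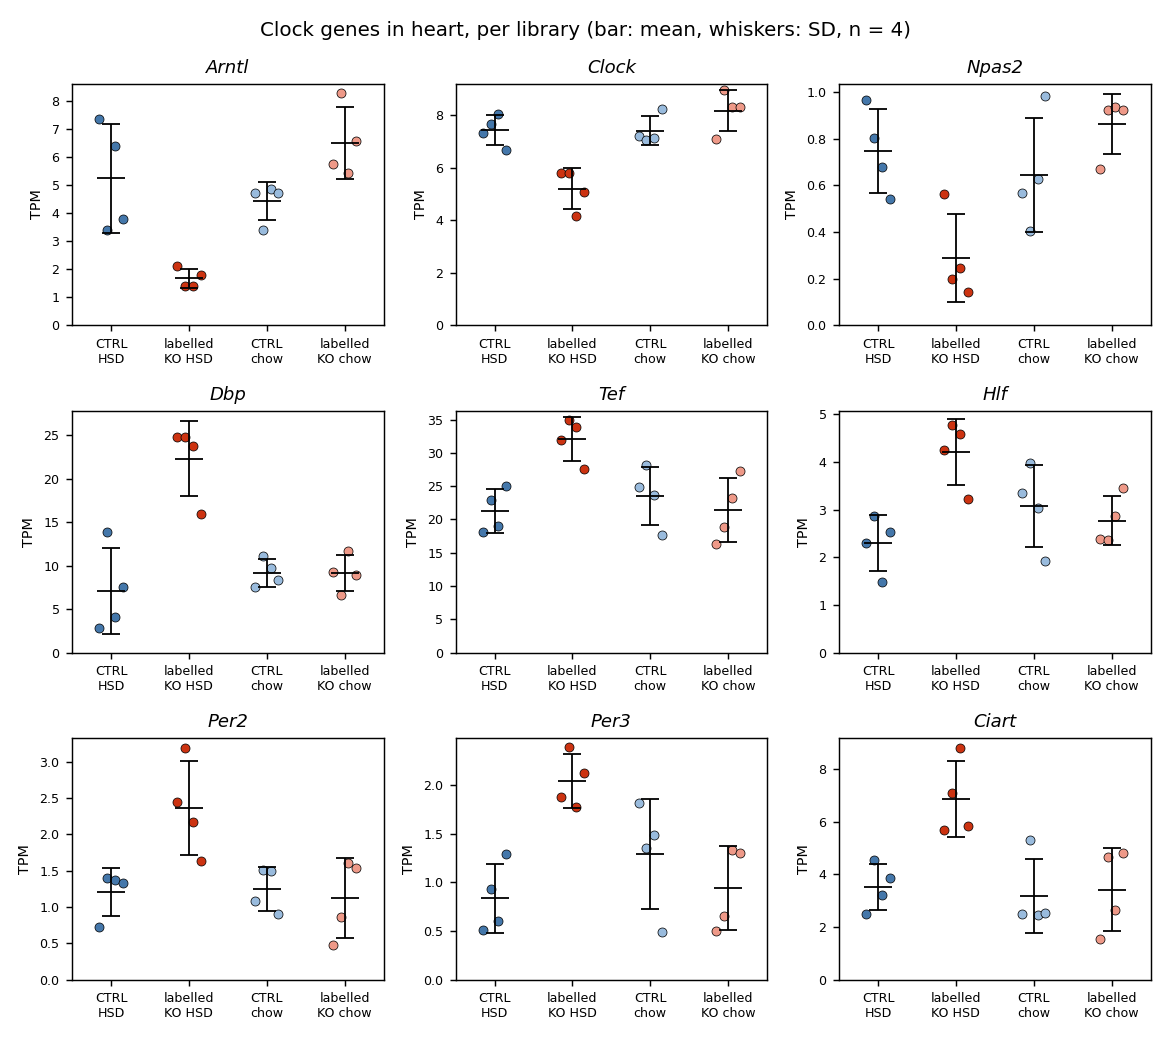
TPM (y axis, from 0) of 9 clock genes in each of the 16 heart libraries, grouped on the x axis by genotype and diet; points are libraries, the bar is the mean and the whiskers 1 SD (n = 4). On HSD the labelled-KO points of Arntl lie at 1.41 to 2.10 TPM, below all 4 CTRL points, and those of Dbp at 15.9 to 24.8 TPM, above all 4.

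Of the 19 clock genes tested, 1 was called, beside 0.0412% of all genes. At an unadjusted p under 0.05, 9 had a higher and 4 a lower mean, beside 2.85% and 2.59% of all genes. Their median log2 fold change was 0.40, against 0.00 over all genes. On chow 1 of the 19 was at an unadjusted p under 0.05, with a median of -0.04, and the interaction was at an unadjusted p under 0.05 for 13 of the 19, against 4.78% of all genes. With the clock score below as a covariate 5 of the 19, rather than 12, had a higher mean. A clock score was taken as the mean log2 CPM of the targets (Dbp, Hlf, Tef, Ciart, Per3, Per2) less that of the activators (Clock, Npas2, Arntl). It was 1.32 to 2.04 in labelled KO on HSD and -1.39 to 0.12 in CTRL on HSD. The chow groups had scores of -1.10 to -0.24 in labelled KO and -0.90 to 0.63 in CTRL, so the labelled-KO HSD libraries were the ones outside the range of the other 12. The score is built from genes already described and is no separate support. It left out the targets Nr1d1, Cry1, Per1, Cry2 and Nr1d2, whose log2 fold changes on HSD were -0.01, -0.06, 0.40, 0.43 and 0.44. It did not overlap between the HSD groups, so fits with it as a covariate have little left to test, here and below. Since the hour of sampling is not given, a later or earlier hour for 1 group and a changed clock cannot be told apart in these data.

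The other tissues of these groups came from the same 16 mice by the labels' account, so their values stand beside those of the heart and are not independent of them. Arntl had a log2 fold change on HSD of -2.80 in liver, -1.64 in WAT and -0.96 in muscle, beside -1.70 in heart. Dbp was at 2.45, 2.55 and 1.17, and Per3 at 2.29, 1.27 and 1.03, in the same order. Clock was at -0.65, -0.81 and -0.52, and Npas2 at -3.34, -1.93 and -1.20. All 4 tissues had the same sign for these 5 genes, and the heart's values lay between those of muscle and liver in Arntl, Dbp, Per3 and Npas2. Differences between tissues were not tested.

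**Figure D2:**
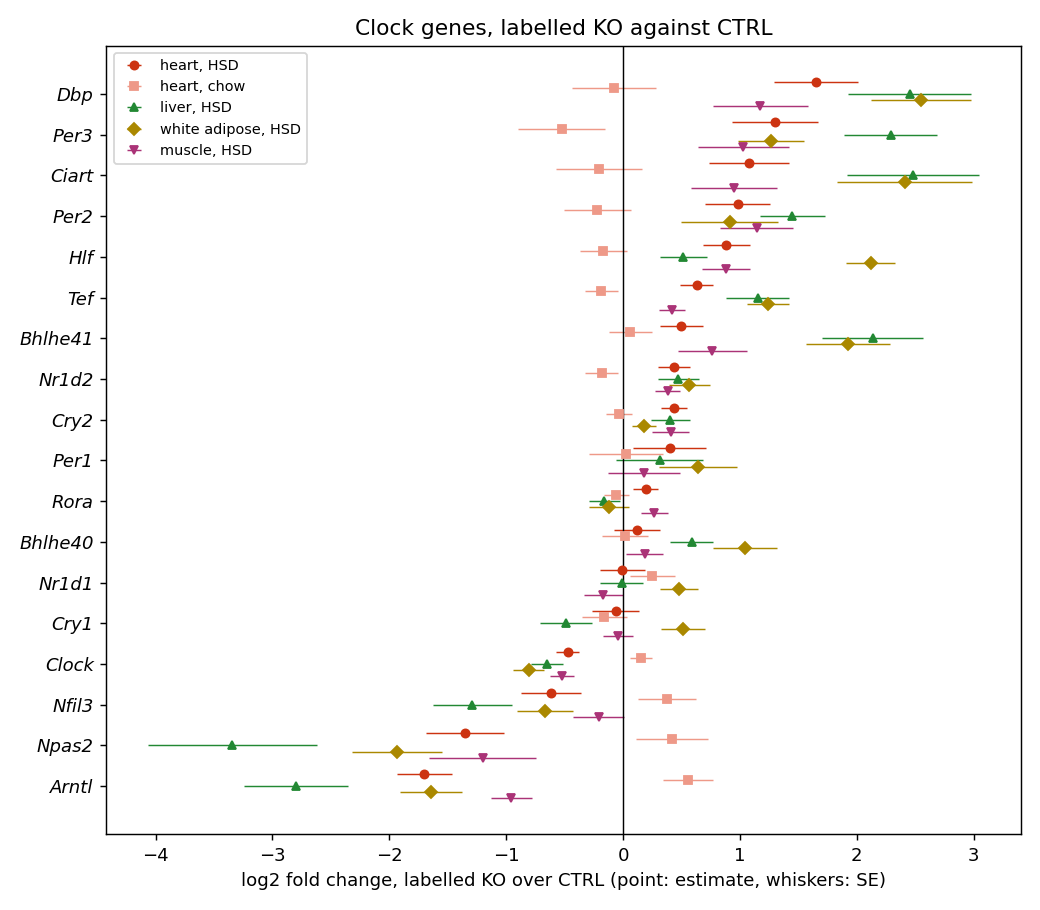
Log2 fold change of labelled KO over CTRL (x axis, points with SE whiskers) for 18 clock genes (y axis, ordered by the heart's value on HSD), in heart on HSD, heart on chow and 3 other tissues on HSD. Arntl on HSD lies at -1.70 in heart and between -0.96 and -2.80 elsewhere, and at 0.56 in heart on chow.

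Cdkn1a (chromosome 17, 29090976 to 29100727) encodes p21, which halts the cell cycle and is a target of p53 and of glucocorticoids. It was 12.7, 10.6, 12.6 and 13.5 TPM in labelled KO and 30.98, 26.9, 44.5 and 28.03 TPM in CTRL. All 4 labelled-KO libraries lay well below the lowest CTRL one, and Cdkn1a fell by 1.37 ± 0.22 on the log2 scale (adjusted p = 0.0464, edgeR). On chow its range was 10.6 to 29.9 TPM in labelled KO and 18.6 to 26.5 TPM in CTRL, and the interaction, at -1.21 ± 0.31, did not pass (adjusted p = 0.447). Cdkn1a was at -2.93 in liver, -1.03 in WAT and -1.26 in muscle on HSD. Cdkn1a belongs to 2 lists and was the 1 called gene in each, beside 0.0412% of all genes, so these counts are 1 result. Of the 14 tested p53 targets and growth arrest genes 7 had a higher mean. Of the 25 glucocorticoid and fasting responsive genes 13 had a higher mean (4 with the clock score described above as a covariate).

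Tiam2 (chromosome 17, 3326573 to 3531344), an exchange factor that activates the small GTPase Rac, was scarce and even within groups. It was 0.211, 0.310, 0.310 and 0.262 TPM in labelled KO and 0.705, 0.753, 0.753 and 0.641 TPM in CTRL, from 66 and 188 estimated counts, and fell by 1.36 ± 0.22 on the log2 scale (adjusted p = 0.0241, edgeR). Adam19 (chromosome 11, 46055992 to 46147343), a membrane metalloprotease that heart valve and septum formation depend on, was 3.03, 3.02, 2.47 and 2.12 TPM in labelled KO and 7.09, 5.13, 6.45 and 3.97 TPM in CTRL. It fell by 1.07 ± 0.17 (adjusted p = 0.0241), with no overlap of the groups. On chow the genotype difference was 0.38 ± 0.21 for Tiam2 and 0.29 ± 0.16 for Adam19, and the interactions, -1.74 ± 0.30 and -1.36 ± 0.24, each had an adjusted p of 0.0628 in edgeR. In liver, WAT and muscle on HSD Tiam2 was at -0.19, 0.73 and 0.85 and Adam19 at -0.79, 0.19 and 0.36, so the low values of these 2 genes were not seen with the same sign in every tissue, unlike those of Arntl.

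Slc46a3 (chromosome 5, 147878437 to 147894815), a transporter of the lysosomal membrane, was the 1 called rise, and is named after its values were seen because its groups overlap in TPM. It was 5.75, 4.36, 4.19 and 3.52 TPM in labelled KO and 2.08, 4.25, 2.25 and 2.14 TPM in CTRL. CTRL HSD replicate 2, at 4.25 TPM, stood at the level of the labelled-KO libraries and the other 3 below them. The log2 fold change was 0.87 ± 0.14 (adjusted p = 0.0241, edgeR), against -0.20 ± 0.13 on chow.

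None of the 5 calls held when each of the 8 HSD libraries was left out in turn, although each kept its direction and a size near the full value. Arntl had log2 fold changes from -1.85 to -1.51 and remained past the threshold in 4 of the 8, with adjusted p of 0.052, 0.0942 and 0.125 without labelled-KO replicates 1, 2 and 3 and 0.0729 without CTRL replicate 3. Its adjusted p was 0.0222 without labelled-KO replicate 4 and 0.00218 to 0.0474 without CTRL replicates 1, 2 or 4. Slc46a3 (0.82 to 0.93) remained past it in 2, without either replicate 4, Tiam2 (-1.43 to -1.24) and Adam19 (-1.18 to -0.95) in 1, without CTRL replicate 4, and Cdkn1a (-1.47 to -1.21) in 0, its adjusted p ranging from 0.0615 to 0.239. Without a low-count filter the adjusted p of Cdkn1a was 0.109. The count of calls was 0 without labelled-KO replicates 1, 2 or 3 or CTRL replicate 3, 1 and 2 without CTRL replicates 1 and 2, 3 without labelled-KO replicate 4 and 7 without CTRL replicate 4. DESeq2's Wald test called 25 genes, all 5 among them, and limma on log2(TPM + 1) called 0, with 618 at an unadjusted p under 0.05.

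**Figure D3:**
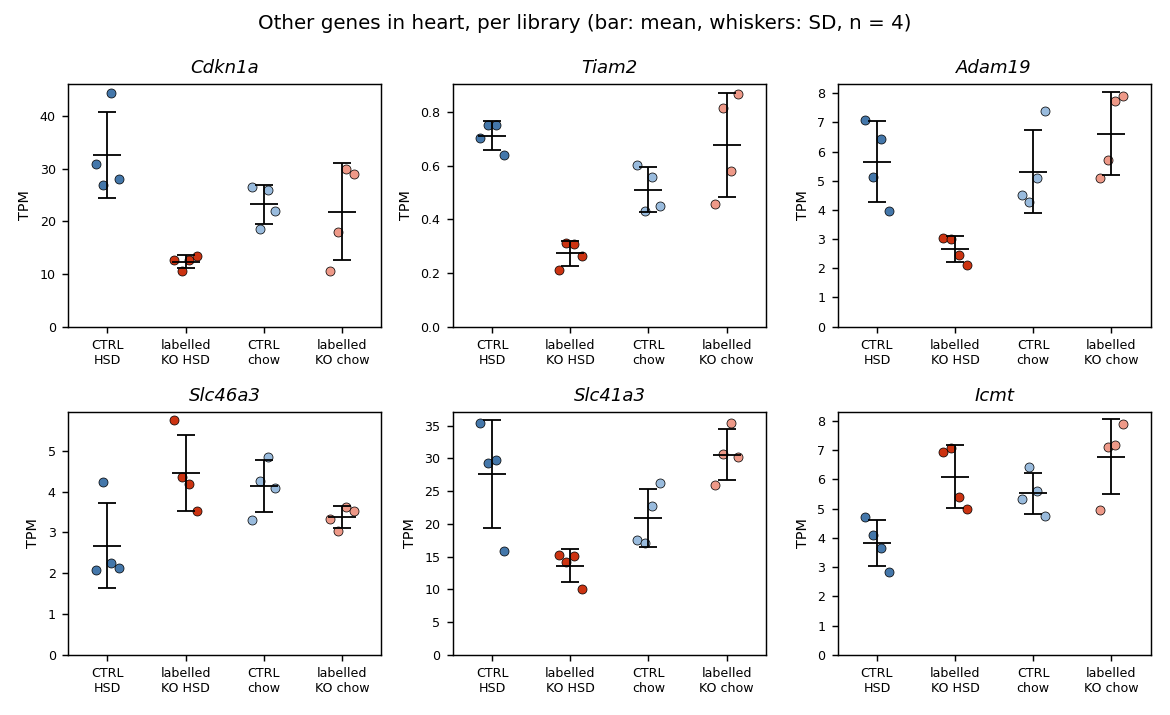
TPM (y axis, from 0) of 4 called genes, Slc41a3 and Icmt in each heart library by genotype and diet (x axis); points are libraries, bars means and whiskers 1 SD (n = 4). Cdkn1a lies at 10.6 to 13.5 TPM in labelled KO on HSD, below the 26.9 to 44.5 TPM of CTRL on HSD, while 1 CTRL point of Slc46a3 reaches 4.25 TPM.

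The naming rule took, beyond the calls, the genes of smallest p with groups apart in TPM, and all 20 of these missed the threshold in edgeR. DESeq2's Wald test called 12 of the 20: Clock, Dbp, Tef and Hlf of the clock, and Icmt, Fibin, Pfkfb3, Prdm15, Tmod2, Slc41a3, Clasp1 and Prkar1a. Slc41a3 also passed with the length trend removed (adjusted p = 0.0408, edgeR). Among those with low values, Slc41a3, of a family of magnesium transporters, was 15.3, 14.1, 15.1 and 10.02 TPM in labelled KO and 35.4, 29.3, 29.7 and 15.9 TPM in CTRL (log2 fold change -0.99 ± 0.18, adjusted p = 0.0808, edgeR). On chow it was at 0.54 ± 0.17, and the interaction of -1.53 ± 0.25 had an adjusted p of 0.0628. Without CTRL HSD replicate 4 the HSD value was -1.16 (adjusted p = 0.00138, edgeR), the 1 pass among the 8 fits without a single HSD library. In the others the adjusted p of Slc41a3 was 0.129 to 0.270 (edgeR). Slc41a3, Adam19, Tiam2 and Arntl each had a negative genotype difference on HSD and a positive one on chow. Tmem171 was 0.769 to 1.26 TPM against 1.48 to 4.27 TPM (-1.45 ± 0.38), Leo1, of the PAF1 complex that travels with RNA polymerase II, 2.40 to 3.60 TPM against 4.36 to 7.70 TPM (-0.78 ± 0.19), and Adcy1, an adenylyl cyclase, 0.104 to 0.269 TPM against 0.297 to 0.407 TPM (-1.16 ± 0.30).

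Smaller differences of the same sign were seen in genes with high levels. Prkar1a, a regulatory subunit of protein kinase A, was 90.7 to 105.0 TPM in labelled KO and 109 to 130.1 TPM in CTRL (-0.27 ± 0.07), and Clasp1, which binds growing microtubule ends, 33.2 to 43.2 TPM against 45.99 to 53.98 TPM (-0.36 ± 0.09). Their adjusted p were 0.406 and 0.326 in edgeR.

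Among those with high values, Icmt, the enzyme that methylates prenylated proteins such as Ras, had the smallest p. It was 6.94, 7.09, 5.39 and 4.99 TPM in labelled KO and 4.71, 4.10, 3.67 and 2.84 TPM in CTRL (0.69 ± 0.13, adjusted p = 0.115, edgeR). Pfkfb3, which makes the glycolytic activator fructose 2,6-bisphosphate, was 2.66, 2.78, 2.84 and 2.91 TPM against 1.44, 1.70, 2.09 and 1.29 TPM (0.85 ± 0.18, adjusted p = 0.193). All 4 labelled-KO libraries of Pfkfb3 lay above the highest CTRL one, which the naming rule requires. Fibin, a secreted factor, was 4.96 to 8.07 TPM against 2.43 to 3.91 TPM (1.07 ± 0.22), and Prdm15, a zinc finger regulator, 0.544 to 0.957 TPM against 0.197 to 0.499 TPM (1.15 ± 0.25). Tmod2, which caps actin filaments, was at 0.83 ± 0.19, Mybpc2, the fast form of myosin binding protein C, at 0.93 ± 0.23, Tnfsf10, the death ligand TRAIL, at 0.58 ± 0.15, Cd46, a complement regulator, at 0.84 ± 0.23 and Fam76a at 0.30 ± 0.08. Tnfsf10 had chow levels of 3.19 to 3.75 TPM in labelled KO and 2.35 to 2.79 TPM in CTRL, apart in the same direction (0.33 ± 0.15, not called).

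Among the macrophage and leukocyte markers, those of smallest p were 3 genes of MHC class II antigen presentation, by which macrophages, dendritic cells and B cells show peptides to helper T cells. They had higher means on HSD and did not pass the test. The other class II gene of the list was not at an unadjusted p under 0.05 (edgeR). H2-Aa was 35.3, 26.7, 36.6 and 23 TPM in labelled KO and 18.8, 20.9, 24.7 and 16.9 TPM in CTRL (log2 fold change 0.59 ± 0.13, adjusted p = 0.213, edgeR; DESeq2's Wald test called it). H2-Ab1 was 16.5, 14.2, 19.1 and 9.49 TPM against 9.73, 11.1, 8.56 and 4.88 TPM (0.79 ± 0.22), and Cd74, the chain that guides class II molecules, 60.9, 35.1, 52.8 and 24.2 TPM against 30.4, 29.8, 37.8 and 21.6 TPM (0.54 ± 0.19). In each of the 3 genes labelled-KO replicate 4 reached into the CTRL range. Both chow groups stood above CTRL on HSD, with H2-Aa at 35.6 to 54.8 TPM in labelled KO and 37.2 to 47.5 TPM in CTRL. The labelled-KO HSD libraries lay mostly between CTRL on HSD and the chow groups, with replicates 1 or 3 reaching the lowest chow libraries.

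Of 16 macrophage and leukocyte markers 12 had a higher mean on HSD and 1 on chow, beside 50.2% and 50.1% of all genes. On HSD 3 were higher at an unadjusted p under 0.05, beside 2.85% of all genes. The list summed to 219 to 366 TPM in labelled KO, 233 to 302 TPM in CTRL and 305 to 478 TPM in the chow libraries. The macrophage receptor Csf1r was 5.26 to 9.12 TPM against 5.55 to 7.28 TPM (0.25 ± 0.12). The lymphocyte markers summed to at most 1.28 TPM in any HSD library and none was tested. Whether the number of immune cells differed was not tested.

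The interferon response list, genes that type I and II interferons switch on, had a higher mean for 27 of 28 members on HSD and 8 of 28 on chow. The median log2 fold change was 0.26 and none was called. At an unadjusted p under 0.05, 6 were higher, beside 2.85% of all genes. Without labelled-KO HSD replicate 3, 14 of 28 had a higher mean and the median was 0.00. The 6 at an unadjusted p under 0.05 became 1 without CTRL replicate 2, 2 without labelled-KO replicate 3 or CTRL replicate 1, 3 without labelled-KO replicate 1, and 4 without either replicate 4. They became 3 with the length trend removed, and 2 in limma or with the clock score. Isg15, named after its values were seen, was 12.8 TPM in that library and 3.69 to 6.14 TPM in the other 3. The guanylate-binding proteins Gbp7 (0.42 ± 0.11), Gbp3 (0.48 ± 0.20) and Gbp2 (0.26 ± 0.12) and the regulator Irf1 (0.34 ± 0.13) had the smallest p. Gbp3 was 7.81, 4.25, 6.58 and 5.92 TPM in labelled KO and 4.10, 3.75, 4.98 and 3.66 TPM in CTRL, with overlap at replicate 2 of labelled KO. Of 11 acute phase and inflammation genes tested, 7 had a higher mean on HSD and 0 on chow; complement C4b was at 0.75 ± 0.32 on HSD and -0.78 ± 0.31 on chow, and its interaction of 1.53 ± 0.45 did not pass (adjusted p = 0.682, edgeR).

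**Figure D4:**
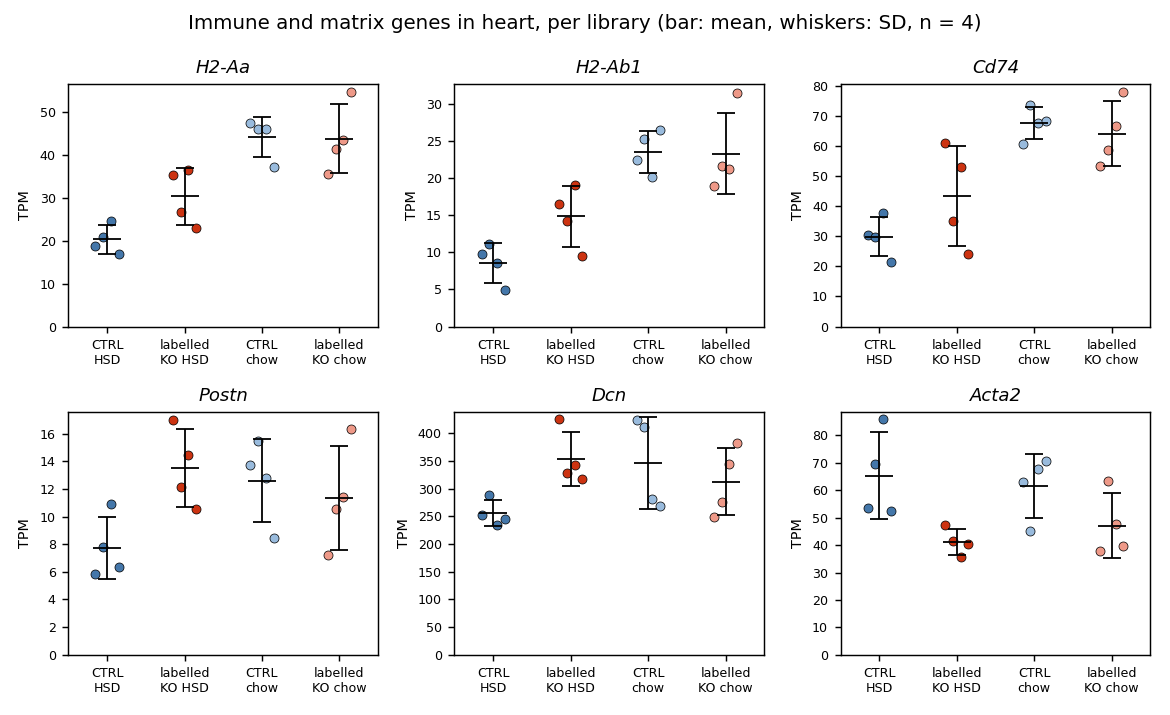
TPM (y axis, from 0) of 3 MHC class II genes, 2 matrix genes and Acta2 in each heart library by genotype and diet (x axis); points are libraries, bars means and whiskers 1 SD (n = 4). H2-Aa in labelled KO on HSD, at 23 to 36.6 TPM, lies mostly above CTRL on HSD and mostly below the chow libraries.

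Matrix and fibroblast genes were higher in mean in labelled KO on HSD, again without a call. Dcn, the collagen-binding proteoglycan decorin, was 426, 329, 343 and 317 TPM in labelled KO and 253, 289, 234 and 246 TPM in CTRL, with the groups apart (log2 fold change 0.48 ± 0.14, adjusted p = 0.503, edgeR). Postn, the matrix protein periostin of activated fibroblasts, was 16.99, 12.17, 14.5 and 10.5 TPM against 5.82, 7.83, 10.9 and 6.34 TPM (0.79 ± 0.22), with CTRL replicate 3 above the lowest labelled-KO library. Lum was at 0.43 ± 0.15 and Fbn1, the microfibril protein fibrillin, at -0.65 ± 0.20. Of 32 matrix genes 22 had a higher mean on HSD and 21 on chow, so this share was alike in both diets. On HSD 5 higher and 1 lower were at an unadjusted p under 0.05, beside 2.85% and 2.59% of all genes. Without labelled-KO replicate 1 the balance turned: 14 of 32 had a higher mean, the median was -0.05 against 0.15 with it, and 2 higher and 5 lower were at an unadjusted p under 0.05. The counts were 8 and 1 without labelled-KO replicate 4, and 4 and 3 without CTRL replicate 4. The fibroblast markers had a higher mean for 9 of 10, with a median of 0.23, and for 6 of 10 with a median of 0.06 without labelled-KO replicate 1. Of the 10 cardiomyocyte markers 1 had a higher mean and 9 a lower one, with a median of -0.05. The count with a higher mean was 2 without labelled-KO replicates 1 or 3 and 3 without labelled-KO replicate 4. It was 4 without CTRL replicate 1 and 7 with the clock score. The fibroblast markers summed to 622 to 1018 TPM in labelled KO and 541 to 700.0 TPM in CTRL. The share of fibroblast RNA in the matrix values was not tested. The contractile actin of smooth muscle, Acta2, was lower, at 47.2, 41.3, 35.5 and 40.4 TPM against 53.4, 69.4, 86.1 and 52.3 TPM, with the groups apart (-0.62 ± 0.21, adjusted p = 0.693). Of the pericyte and smooth muscle markers 8 of 10 had a higher mean, and 5 of 10 without labelled-KO replicate 1 or without CTRL replicate 4.

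Contractile and load genes had about as many higher as lower means. Of 29 contractile genes 13 had a higher mean and the median was -0.02, and of 13 load and hypertrophy markers 6, with a median of 0.00. At an unadjusted p under 0.05, 5 of the 13 load markers were higher and 1 lower, beside 2.85% and 2.59% of all genes. The higher count was 4 or 5 when any 1 library was left out. In limma 2 were higher and 2 lower, and with the clock score as a covariate 0 were. The contractile count was 8 of 29 without labelled-KO replicate 1 and 20 of 29 with the clock score as a covariate. Myh7, the slow myosin that adult mouse ventricle re-expresses under load, was 66.3, 50.5, 67.8 and 25.4 TPM in labelled KO and 24.8, 41.5, 30.5 and 31.8 TPM in CTRL (log2 fold change 1.16 ± 0.41, adjusted p = 0.765, edgeR). Its labelled-KO replicate 4 was at the CTRL level. Tcap, the telethonin of the Z-disc, was at 0.53 ± 0.20, Fhl1 at 0.23 ± 0.07 and the stress marker Ankrd1 at 0.49 ± 0.25, while Actc1, cardiac actin, was 3456 to 4525 TPM against 4662 to 5549 TPM (-0.30 ± 0.14). Rcan1, a calcineurin target, was at -0.46 ± 0.16. The natriuretic peptide Nppa, a usual marker of wall stress, was 206, 99.2, 70.4 and 80.3 TPM against 129, 166, 205 and 133 TPM (-0.48 ± 0.41), with overlap. It belongs also to the atrial list, whose sum ranged from 99.1 to 420 TPM in labelled KO and 151 to 369 TPM in CTRL; 5 of its 8 genes had a higher mean, and 1 without labelled-KO replicate 1.

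In the list of calcium handling genes and ion channels 9 of 31 had a higher mean, with a median of -0.11. Gja1, the gap junction protein connexin 43, was 68.1, 56.5, 61.5 and 59.9 TPM in labelled KO and 83.6, 95.2, 76.0 and 89.9 TPM in CTRL, with the groups apart (-0.47 ± 0.19, adjusted p = 0.831, edgeR). Its chow difference was 0.32 ± 0.19 and the interaction -0.79 ± 0.27 (unadjusted p 0.00921, adjusted p = 0.889). Jph2, which couples the cell membrane to the calcium store, was at -0.21 ± 0.08, and Abcc9, of the potassium channel that ATP closes, at -0.16 ± 0.07.

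Genes of energy metabolism had small median differences and no call. Glycolysis and glucose uptake genes, among them those of the pathway that pyruvate kinase ends, had a higher mean for 6 of 28 on HSD and 15 of 28 on chow, with medians of -0.04 and 0.00, and the HSD count was 11 without labelled-KO replicate 4 and 24 with the clock score as a covariate. Besides Pfkfb3, its sister gene Pfkfb1 was 8.76, 7.88, 8.66 and 7.01 TPM in labelled KO and 5.98, 5.90, 2.82 and 6.44 TPM in CTRL, with the groups apart (0.61 ± 0.21, adjusted p = 0.71, edgeR). On chow Pfkfb1 was at -0.50 ± 0.21, and its interaction was 1.10 ± 0.30 (adjusted p = 0.453). Pfkp, a phosphofructokinase, was at -0.31 ± 0.14 and the hexokinase Hk1 at -0.18 ± 0.10. In the list for pyruvate oxidation and TCA cycle 11 of 34 had a higher mean and 0 were at an unadjusted p under 0.05 in either direction. Citrate synthase, Cs, was 377, 363, 389 and 371 TPM against 425, 408, 416 and 416 TPM, apart in TPM by a small amount (-0.13 ± 0.08, adjusted p = 0.998). Of 48 fatty acid oxidation and PPAR target genes, the main fuel route of the heart, 13 had a higher mean on HSD and 15 on chow; the HSD count was 21 without labelled-KO replicate 1 and 22 without CTRL replicate 4, and 6 in limma on log2(TPM + 1). Cyp4b1 was at 0.39 ± 0.14, the receptor Ppara at -0.27 ± 0.13 and its coactivator Ppargc1a at -0.22 ± 0.14. Lpin1, a phosphatidate phosphatase, was at -0.24 ± 0.09.

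The nuclear genes of the respiratory chain had more lower than higher means. Of 37 complex I subunits 9 had a higher mean (median -0.06) and of 38 subunits of complexes III to V 7 (median -0.06), against 16 and 19 on chow. These counts moved with single libraries. Without CTRL replicate 1 they were 17 and 18, without labelled-KO replicate 4 they were 17 and 14, without labelled-KO replicate 3 they were 4 and 3, without CTRL replicate 4 complex I was at 4 and without CTRL replicate 3 complexes III to V were at 2. With the clock score as a covariate they were 25 of 37 and 25 of 38, the other direction, in a fit with little left to test. Ndufa10 was 35.2, 32.8, 38.6 and 24.1 TPM against 45.1, 40.3, 49.4 and 36.7 TPM (-0.41 ± 0.12, adjusted p = 0.475, edgeR), Ndufs5 at -0.18 ± 0.08 and Atp5k at -0.22 ± 0.08. The 13 mitochondrially encoded transcripts had a higher mean for 10, with a median of 0.02, and for 1, with a median of -0.08, without labelled-KO replicate 4, the library with the highest mitochondrial share; without CTRL replicate 3 it was 6.

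Stress and synthesis lists gave these values. Of 20 endoplasmic reticulum chaperone and unfolded protein response genes 18 had a higher mean on HSD and 2 on chow, with medians of 0.10 and -0.19, and 0 were at an unadjusted p under 0.05 on HSD; with the clock score as a covariate 5 of 20 had a higher mean. Pdia3, a disulfide isomerase, was at 0.21 ± 0.13. Of 20 antioxidant and NRF2 target genes 16 had a higher mean, 7 when the clock score was a covariate, and Nqo1, the quinone reductase, was 36.02, 41.8, 36.04 and 42.3 TPM against 28.2, 30.6, 31.8 and 32.3 TPM, with the groups apart (0.37 ± 0.13, adjusted p = 0.692, edgeR); Gclm, of glutathione synthesis, was at 0.47 ± 0.19. Of 37 cytosolic ribosomal protein genes 30 had a higher mean, with a median of 0.07, and 19 without CTRL replicate 4. Of 29 fatty acid and cholesterol synthesis genes 16 had a higher mean; Fdft1, squalene synthase, was 10.7, 12.18, 11.7 and 10.3 TPM against 9.08, 9.30, 8.43 and 9.83 TPM (0.31 ± 0.09). Among 7 tested skeletal muscle markers 0 had a higher mean, 1 without labelled-KO replicate 4 or CTRL replicates 1 or 2, with a sum of 154 to 543 TPM in labelled KO and 240 to 509 TPM in CTRL.

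Lists that bear on the genetic background gave no call. Of 20 tested neighbours of Pklr on chromosome 3, 10 had a higher mean on HSD and 16 on chow; the HSD count was 6 without labelled-KO replicate 1, 5 in limma and 16 with the clock score. Of 8 tested genes that differ between C57BL/6 substrains 8 had a higher mean on HSD and 3 on chow. Ide, the insulin-degrading enzyme, was 21.5, 23.3, 10.5 and 20.3 TPM in labelled KO and 14.1, 11.01, 8.87 and 9.89 TPM in CTRL (0.81 ± 0.29, adjusted p = 0.749, edgeR), with labelled-KO replicate 3 inside the CTRL range. Nnt, which is truncated in C57BL/6J, was 119 to 147 TPM in labelled KO and 121 to 137 TPM in CTRL (0.11 ± 0.07).

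**Figure D5:**
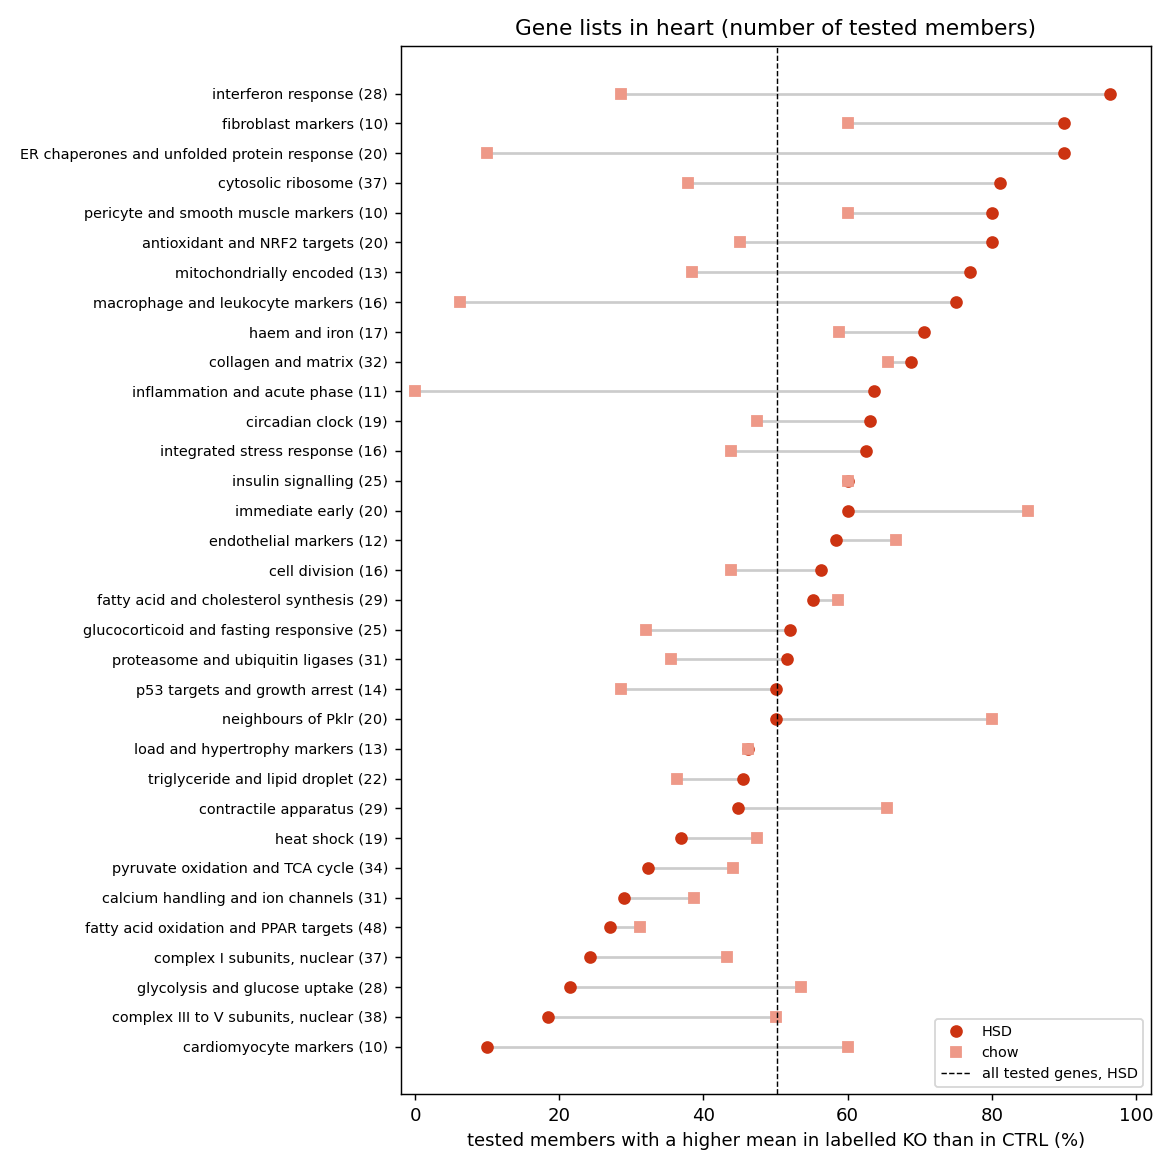
Share of tested members with a higher mean in labelled KO than in CTRL (x axis, percent) for each gene list with at least 10 tested members (y axis, number tested in brackets), on HSD and on chow; the dashed line is the 50.2% of all tested genes on HSD. The interferon list lies at 27 of 28 on HSD and 8 of 28 on chow, and 14 of 28 without 1 library.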

How the data were processed

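The series holds RNA-seq of 64 libraries from 4 tissues, and 16 heart libraries were fitted. The submitters' processing notes name kallisto, a transcript quantifier, and the build GRCm38 for the values the authors deposited (settings: not given in the sources used here). Estimated counts and TPM per gene symbol make up the deposited files, for 19521 genes. TPM were used as deposited for levels; estimated counts were rounded to whole numbers for tests. Estimated counts share reads among similar transcripts, and whether strand was used is not given, so near-identical copies and antisense overlaps cannot be told apart.

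Genes passing filterByExpr (minimum count 10; 12134 genes) were scaled by TMM and fitted in R 4.3.3 with edgeR 4.0.16 (robust quasi-likelihood, 1 mean for each of 4 groups). Adjusted p are Benjamini-Hochberg values over all tested genes, with a threshold of 0.05. SE were taken from the F statistic. The members and lists were chosen with earlier results of these data known. Named genes were Pklr and Pkm, up to 12 rises and 12 falls with groups apart in TPM and log2 CPM averaging 1 or more (calls first, then the smallest p; predicted, clone-named and multigene-family genes left out) and up to 4 members of smallest p per list described; others are named after their values were seen. The 30 pathway and 15 marker lists hold 837 genes. Positions are from GENCODE M21 on GRCm38. The edgeR fit was run on counts simulated from its own means and dispersions, which cannot show how it behaves on these libraries. Chi-square per degree of freedom was at least 4.42 in all 24 replicate pairs of heart, and 0 columns were identical, so each library was counted as its own sample.

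Alternatives were DESeq2 1.42.0 size factors, no low-count filter, DESeq2's Wald test, limma 3.58.1 on log2(TPM + 1), the 8 libraries compared alone, mitochondrially encoded genes left out, the clock score as a covariate, each library's trend on transcript length removed by loess, each library left out in turn and, for the permutation tests, a pseudocount of 0.1. Leaving out both HSD replicates 4 was added after seeing the data. Of the named genes and list members, 4 are not reported here by name; they remain in the counts of their lists.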

Additional observations from a re-analysis of the deposited data

Results flagged for a closer look

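The genotype difference in Arntl on HSD differed from that on chow by -2.25 on the log2 scale, the 1 gene that passed the interaction test.

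In 9 of 168 groups of 4 libraries examined (5.36%; chance gives about 1 in 20), 1 library stood far from the other 3. In CTRL on HSD these were Slc46a3 in replicate 2 (4.25 TPM, others 2.08 to 2.25), Gbp2 in replicate 2 (4.81 TPM, others 5.60 to 5.64), Per2 in replicate 1 (0.721 TPM, others 1.34 to 1.40), Pfkfb1 in replicate 3 (2.82 TPM, others 5.90 to 6.44), and, in replicate 4, Per1 (5.29 TPM, others 6.34 to 6.54) and Cd46 (0.279 TPM, others 0.365 to 0.375). In labelled KO on HSD they were Cry1 in replicate 2 (5.71 TPM, others 1.65 to 2.10), Dbp in replicate 4 (15.9 TPM, others 23.7 to 24.8) and Atp5k in replicate 3 (1090 TPM, others 916 to 932). In 3 of these 9 the library was a replicate 4, as are 2 of the 8 HSD libraries. Replicate 4 had the highest mitochondrial share of its group, and whether that bears on these values was not tested.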

How the results depend on the processing

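No paired analysis was possible because the title numbers of the 2 HSD groups, and of the 2 chow groups, share no number within heart. On HSD, against 5 calls, DESeq2's Wald test gave 25, limma on log2(TPM + 1) gave 0, the 8 libraries alone gave 1 (Cdkn1a) and the clock score as a covariate gave 0; leaving out 1 library gave 0 to 7, with every such fit on fewer samples. For the interaction, against 1 call, DESeq2's Wald test gave 12, limma 0, the clock score 0, the length trend removed 2 and leaving out both HSD replicates 4 gave 5; leaving out 1 library gave 0 to 6. Arntl's interaction was lost without labelled-KO HSD replicates 2 or 3, CTRL HSD replicate 3 or CTRL chow replicates 2 or 3 (adjusted p 0.0539 to 0.0835, edgeR). The chow contrast gave 0 under every alternative run. With the clock score as a covariate Arntl was at -0.46 and Adam19 at -0.35, against -1.37 for Cdkn1a and -1.42 for Tiam2; the score is built from Arntl and other clock genes and does not overlap between the HSD groups, so this fit has little left to test. Over 87 named genes the sign was kept in 1451 of 1479 alternative values, and 20 of the 28 that turned came with the clock score. The permutation tests of Pklr and Pkm kept their p with the smaller pseudocount. Pklr, Tiam2, Npas2 and Tmem171 rest on few counts, which limits their precision.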
